A study of Homo sapiens with 8 samples.

Results

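Ribosome footprints were followed for 10 genes whose products sense collided ribosomes or rescue and recycle stalled ones: *ZNF598*, *MAP3K20*, *EDF1*, *GIGYF2*, *ASCC3*, *PELO*, *HBS1L*, *ABCE1*, *NEMF* and *LTN1*. They were chosen by name and Ensembl gene ID for their known roles, by a rule that uses no measured value though earlier results of these data were known, and all 10 were found among the 19580 transcripts of the deposited table, which lists 1 transcript per gene. The cells were HAP1, a near-haploid adherent human line of chronic myeloid leukaemia origin, either wild type (WT) or RNF14 knockout; whether the knockout is a single clone is not given in the sources used here. Every group, wild type included, had received 4-thiouridine (4SU) at 5 uM over 18 h and then UVA light at a dose of 6 kJ/m2, so no untreated cells serve as a baseline. 4SU is a uridine analogue that enters new RNA and, under UVA, bonds it to bound proteins. The 4 groups were wild type at 0 min and at 30 min of recovery and RNF14 knockout at 0 min and at 30 min, with 2 biological replicates each, 8 libraries in all.

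When a ribosome stops on a damaged or crosslinked mRNA, the ribosome behind runs into it, and the interface of the collided pair is what the cell recognises. ZNF598, a ubiquitin ligase, marks small-subunit proteins at that interface, the kinase MAP3K20 (ZAK) starts the ribotoxic stress response from it, and EDF1 binds there and brings in GIGYF2, which represses new initiation on the same mRNA. The helicase ASCC3 pulls the leading ribosome apart; PELO with the GTPase HBS1L opens ribosomes with an empty A site, ABCE1 splits the subunits, and NEMF and the ligase LTN1 clear the peptide left on the large subunit. RNF14, the product targeted in the knockout line, is a ubiquitin ligase that acts on proteins trapped at stalled ribosomes.

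Libraries held between 323946 and 1241975 reads on listed transcripts, recovered from the deposited values. The 4 libraries at 30 min, at most 717828 reads, were all shallower than the 4 at 0 min, at least 778683 reads, so depth and recovery time cannot be told apart. The shallowest, knockout 30 min replicate 1, is given with and without below where a call depends on it. The 10 genes together had 3254 reads, and 1 gene in 1 library had between 4 and 145. Gene IDs of the table could be paired with names only for these 10 genes: of 70 further genes in 12 lists (other factors of the pathway and lineage markers) 0 could be matched, so neither the HAP1 identity nor the loss of *RNF14* was checked here. Footprints reflect both mRNA level and translation, and matched RNA libraries were not used here.

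The 10 genes spanned a wide range of levels, with *EDF1* far above the rest, and 1 of them passed the test in any comparison of time or genotype. Levels are in RPKM, footprint reads scaled to transcript length and to library size. The length is that of the listed transcript, and reads per codon were not computed. The order and ratios of genes in RPKM may thus differ from those per coding base. *EDF1* was highest, with a mean of 146 RPKM over the 8 libraries (lowest 107, highest 184). It was followed by *ZNF598* at a mean of 28.9 RPKM, *ABCE1* at 24.9, *NEMF* at 20.4, *HBS1L* at 11.8, *GIGYF2* at 11.0, *ASCC3* at 7.51, *LTN1* at 5.80, *MAP3K20* at 5.11 and *PELO* at 4.87. By mean level *EDF1* was 30.0 times above *PELO*. It lay at the 95.03th percentile of the 11920 transcripts with a mean RPKM of at least 1, and *PELO* at the 22.9th. All 10 genes passed that filter, and 4 of them lay above the median tested transcript, at 12.5 RPKM.

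Only the step from *EDF1* to the gene below it separated the neighbours in all libraries: *EDF1* exceeded *ZNF598* in 8 of 8, by 5.06 times in the mean. The ranges of every other pair of neighbours overlapped. *HBS1L* exceeded *GIGYF2* in 3 of 8 libraries and *LTN1* exceeded *MAP3K20* in 4 of 8, so the order inside the lower ranks is not fixed by these data. The level of *NEMF* rests on a listed transcript, ENST00000556672.1, of 590 nt, which is too short for the coding sequence of the full-length protein, as is the 3433 nt listed for *ASCC3*. The deposited lengths of the other 9 run from 809 nt for *EDF1* to 7756 nt for *LTN1*.

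**Figure D1:**
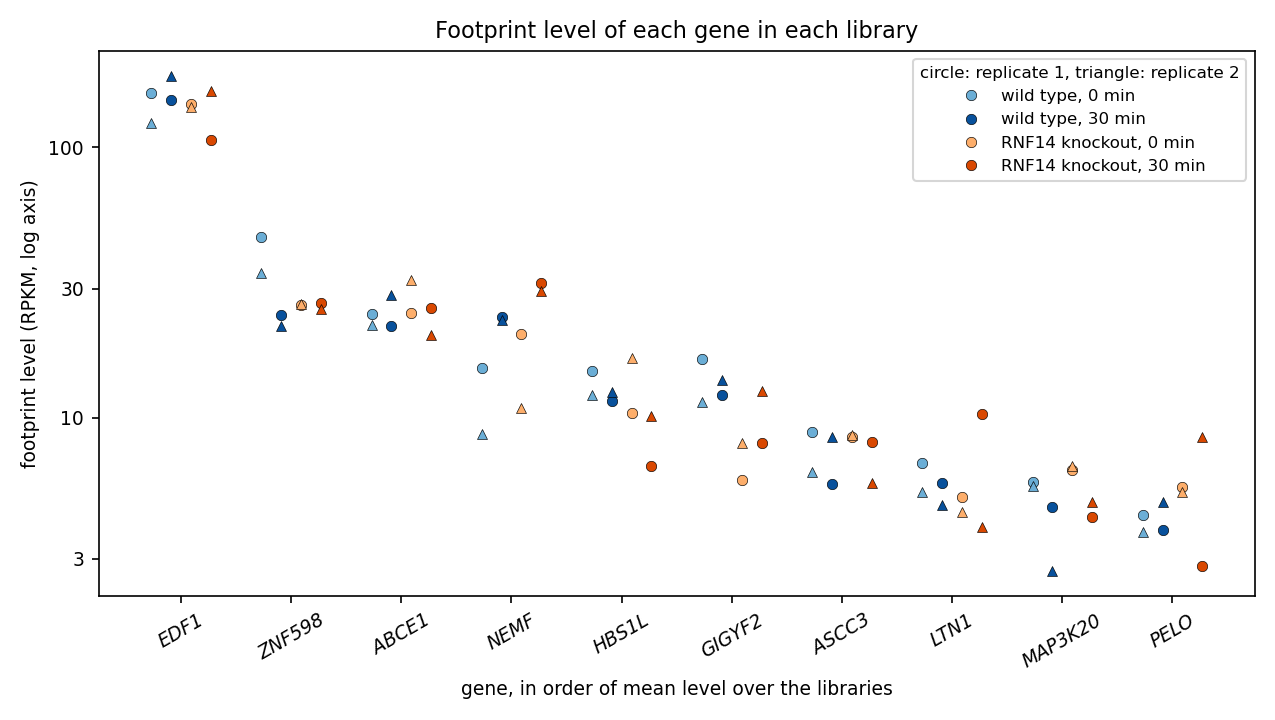
Footprint level in RPKM (log axis) of each of the 10 genes, ordered by mean level, in each of the 8 libraries; colour gives genotype and recovery time, circles replicate 1 and triangles replicate 2. *EDF1*, between 107 and 184 RPKM, stands above all others, while neighbours further down overlap.

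The bases around the annotated start of 4 genes are shown because the first bases of an mRNA bear on how its translation is regulated: a start of C and further pyrimidines is the hallmark of 5′ terminal oligopyrimidine (TOP) mRNAs, which encode ribosomal proteins and elongation factors. *EDF1* is the most footprinted of the set, and *ZNF598*, *GIGYF2* and *NEMF* are the genes whose differences are described most fully. Each line gives 10 bases before and 20 bases from the RefSeq gene start (GRCh38.p14) on the gene's own strand, 5′ to 3′, with the first 4 transcribed bases in capitals.
EDF1: cgcgccaggtCTCTagcagctgccgctgag
ZNF598: acgtttgcccGGAAggggcgggcccgccgg
GIGYF2: cgtgtcggccATCTtgtgttgttgaggctg
NEMF: gccgggcagtAGAGgaacttgcggtagtga
The windows lie at chr9:136866289-136866318 (minus strand), chr16:2009802-2009831 (minus), chr2:232697321-232697350 (plus) and chr14:49852769-49852798 (minus). RefSeq starts were given for 9 of the 10 genes, all but *ASCC3*. The 4 letters CTCT, searched on the transcribed strand at the start only, are the first bases of *EDF1* itself, so its match was given. They opened no other of the 9, and 1.41% of the 35116 gene starts in the table. The next base of *EDF1* is A, which ends its run of pyrimidines, and whether *EDF1* is a TOP mRNA was not tested. A start of C followed by 3 bases that are each C or T was again held by *EDF1* alone, and by 5.45% of all starts. These are matches of letters at an annotated start, which need not be the start used in HAP1 cells.

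Before the comparisons, replicates were set against each other. Over the 40 pairs of replicates (10 genes in 4 groups) the median fold between replicates was 1.27. In 4 pairs the exact 95% binomial (Clopper-Pearson) interval of the ratio of read shares left out 1, which covers counting error only: *ZNF598* and *GIGYF2* in wild type at 0 min, *ABCE1* in the knockout at 0 min and *LTN1* in the knockout at 30 min. In the other 36 pairs the interval included 1, which on few reads does not show that the replicates agree. The widest gap was 3.0-fold, for *PELO* in the knockout at 30 min, on 4 and 17 reads.

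Across 7 comparisons the set gave 70 tests (limma-trend on log2(RPKM + 1), adjusted over all 11920 tested transcripts), of which 1 passed an adjusted p of 0.05. That was *NEMF*, in recovery averaged over genotypes, where 7.79% of all transcripts were called. There 2 of the 10 genes had an unadjusted p below 0.05, beside 24.3%. In wild-type recovery 0 of the 10 genes were called, beside 3.23% of all transcripts, and 2 of the 10 had an unadjusted p below 0.05, beside 20.9%. In knockout recovery 0 were called, beside 1.97%, and 1 had an unadjusted p below 0.05, beside 18.4%. Between genotypes at 0 min 0 were called, beside 0.168%, and 2 had an unadjusted p below 0.05, beside 13.6%. At 30 min 0 were called, beside 0.126%, and 0 had an unadjusted p below 0.05, beside 10.9%. For genotype averaged over times 0 were called, beside 0.378%, and 1 had an unadjusted p below 0.05, beside 11.2%. For the difference in recovery between genotypes 0 were called, beside 0.00839%, and 1 had an unadjusted p below 0.05, beside 13.3%. The counts at an unadjusted p below 0.05 thus lay near those of all transcripts.

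Fitted to the recovered reads, limma voom called more transcripts in each of the 7 comparisons. It called *ZNF598* in wild-type recovery, beside 9.87% of all transcripts, and *GIGYF2* between genotypes at 0 min, beside 6.95%. It called none of the 10 in the other comparisons, where it called 3.36% of all transcripts in knockout recovery, 0.176% between genotypes at 30 min, 1.05% for the difference in recovery, 11.3% for recovery averaged over genotypes and 1.48% for genotype averaged over times.

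The set moved little as a whole and with no shared direction. In wild-type recovery its median log2 difference was -0.09, with 4 genes above 0 and 6 below, beside -0.26 over all transcripts. In knockout recovery the median was -0.10, with 3 above and 7 below, beside -0.12 over all. Between genotypes at 0 min 6 were higher in the knockout and 4 lower (median 0.10, all transcripts -0.08), and at 30 min 5 and 5 (median 0.07, all transcripts 0.02). In recovery averaged over genotypes the median was -0.05, with 4 above and 6 below, beside -0.19 over all. Both splits of wild-type and averaged recovery depend on scaling. For averaged recovery the split was 2 above and 8 below with TPM, and 6 above and 4 below after median centring or quantile normalization. For wild-type recovery it was 1 above and 9 below with TPM (all transcripts -0.54), and 8 above and 2 below after centring each library on its median or after quantile normalization (all transcripts 0.02 and -0.02). Summed over the 10 genes, the share of all reads was 0.0596% ± 0.0101 for wild type at 0 min (SD, n = 2) and 0.0542% ± 0.00357 for wild type at 30 min. For the knockout the summed share was 0.0538% ± 0.00351 at 0 min and 0.0521% ± 0.00171 at 30 min.

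With 2 libraries a group, the ranges of groups often separate. In wild-type recovery 1 of the 10 genes (*NEMF*) had both libraries at 30 min above both at 0 min, as did 14% of all transcripts, and 2 (*ZNF598*, *MAP3K20*) had them below, as did 38.9%. In knockout recovery 2 (*GIGYF2*, *NEMF*) were above, beside 18.6% of all transcripts, and 3 (*MAP3K20*, *ASCC3*, *HBS1L*) below, beside 30.9%. At 0 min 3 genes (*MAP3K20*, *PELO*, *ABCE1*) lay higher in the knockout, beside 21.5%, and 3 (*ZNF598*, *GIGYF2*, *LTN1*) lower, beside 29.4%. At 30 min 2 (*ZNF598*, *NEMF*) lay higher, beside 20.2%, and 1 (*HBS1L*) lower, beside 18.3%. With both times together, 0 of the 10 genes separated the genotypes, beside 2.15% of all transcripts higher and 2.19% lower in the knockout. These shares of all transcripts are high, and the counts among the 10 genes lie near them.

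**Figure D2:**
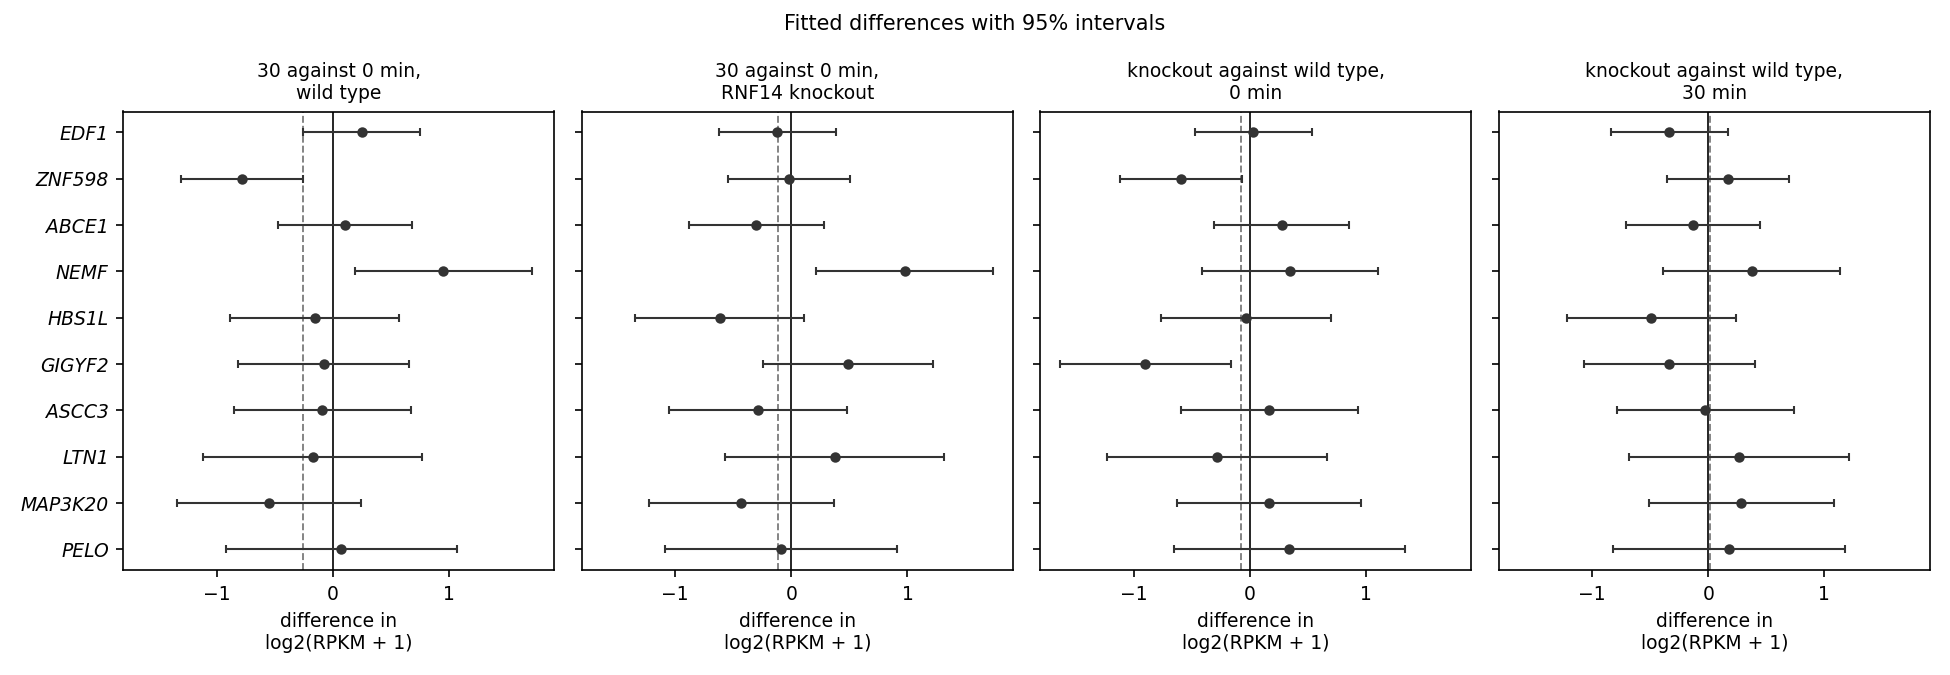
Fitted difference in log2(RPKM + 1) for each gene (point) with its 95% interval (bar) in recovery within each genotype and between genotypes at each time; the dashed line is the median of all tested transcripts. Most intervals include 0; those of *ZNF598* and *NEMF* in wild-type recovery, *NEMF* in knockout recovery, and *ZNF598* and *GIGYF2* between genotypes at 0 min do not, and the adjusted p of these 5 misses the threshold.

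Among the sensors, *ZNF598* (ENSG00000167962.15, chr16 from 1997654 to 2009821, transcript of 3366 nt) showed its highest level in wild type directly after irradiation. Its values were 46.7 and 34.2 RPKM in wild type at 0 min, on 140 and 112 reads, and 24.0 and 21.9 RPKM at 30 min, on 58 and 38 reads. Knockout values were 26.1 and 26.3 RPKM at 0 min and 26.6 and 25.2 RPKM at 30 min. Both wild-type libraries at 0 min thus lay above all 6 others, and the other 6 lay within 21.9 to 26.6 RPKM. How many of all transcripts have a group set apart in this way was not counted.

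The mean of *ZNF598* over wild-type replicates was 40.5 ± 8.81 RPKM directly after UVA (SD, n = 2) and 22.9 ± 1.52 RPKM after 30 min. The log2 difference was -0.78 (SE 0.24, 95% interval -1.30 to -0.25, limma adjusted p = 0.0985), which misses the threshold. It was at the 14.7th percentile of all tested transcripts, whose median was -0.26. On the pooled reads of both replicates, the share of *ZNF598* was 1.74 times lower at 30 min (exact 95% binomial interval 1.37 to 2.22). That interval covers counting error only, and *ZNF598* in wild type at 0 min differed between replicates beyond such error. It was called in 2 of 20 other settings, TPM scaling (limma adjusted p = 0.0269), which called 11.6% of all transcripts, and voom (limma adjusted p = 0.0315), which called 9.87%. The limma adjusted p over all 20 ran from 0.0269 to 0.354. Median centring brought the difference to -0.50 (limma adjusted p = 0.291) and quantile normalization to -0.56 (limma adjusted p = 0.241). TPM scaling also called *ZNF598* lower in recovery averaged over genotypes (limma adjusted p = 0.0427), where it called 18.2% of all transcripts. In the knockout the log2 difference of recovery was -0.02 (SE 0.24, interval -0.54 to 0.51), and it ran from -0.13 to 0.11 over the other settings. The difference between these recoveries was 0.76 (SE 0.33, interval 0.02 to 1.51, limma adjusted p = 0.368) and did not pass. The comparison of genotypes at 0 min uses the same wild-type libraries: *ZNF598* was 0.59 lower in the knockout on the log2 scale (SE 0.24), with a limma adjusted p of 0.318.

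*MAP3K20* (ENSG00000091436.17, chr2 from 173075517 to 173268015, transcript of 7179 nt) had low levels that were again lower at 30 min. It was at 5.79 and 5.59 RPKM in wild type at 0 min and at 4.66 and 2.7 RPKM at 30 min. The knockout libraries gave 6.39 and 6.62 RPKM at 0 min and 4.30 and 4.85 RPKM at 30 min, so the 4 libraries at 30 min lay below the 4 at 0 min. That pattern was held by 10% of all tested transcripts, and 1 of the 10 genes showed it. The log2 difference averaged over genotypes was -0.49 (SE 0.25, interval -1.05 to 0.07, limma adjusted p = 0.269). With 170 reads at 0 min and 60 at 30 min, both genotypes summed, its share of reads was 1.47 times lower (exact 95% interval 1.09 to 2.01, counting error only). Within each genotype the interval included 1. It ran from 0.976 to 2.29 in wild type (1.48 times lower) and from 0.90 to 2.25 in the knockout (1.40 times lower).

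*EDF1* (ENSG00000107223.13, chr9 from 136862119 to 136866308, transcript of 809 nt) had 697 reads over the libraries, 21.4% of all reads of the set, and was the best measured of the 10. It was at 158 and 123 RPKM in wild type at 0 min and at 150 and 184 RPKM at 30 min. In the knockout it was at 144 and 141 RPKM at 0 min and at 107 and 162 RPKM at 30 min. The groups overlapped in every comparison. The log2 difference was 0.25 (interval -0.25 to 0.75) in wild-type recovery and -0.12 (interval -0.62 to 0.38) in knockout recovery. Between genotypes it was 0.03 (interval -0.47 to 0.53) at 0 min and -0.34 (interval -0.84 to 0.17) at 30 min. All 4 intervals include 0, and changes of any size inside them remain possible. Of these 4 directions 3 turned under another setting: wild-type recovery with TPM scaling (-0.05), knockout recovery without knockout 30 min replicate 1 (0.18) or with quantile normalization (0.13), and genotype at 0 min without wild type 0 min replicate 2 (-0.15), with TPM scaling (-0.10) or with quantile normalization (-0.13).

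*GIGYF2* (ENSG00000204120.16, chr2 from 232697331 to 232860605, transcript of 5747 nt), the repressor that EDF1 and ZNF598 both engage, was lower in the knockout directly after irradiation. It was at 16.4 and 11.5 RPKM in wild type at 0 min, on 84 and 64 reads, and at 5.88 and 8.04 RPKM in the knockout at 0 min, on 42 and 36 reads. At 30 min it was at 12.1 and 13.8 RPKM in wild type and at 8.06 and 12.5 RPKM in the knockout. The knockout libraries lay below the wild-type ones at 0 min and overlapped them at 30 min. Wild type averaged 13.9 ± 3.50 RPKM and the knockout 6.96 ± 1.53 RPKM at 0 min (SD, n = 2). The log2 difference between them was -0.90 (SE 0.33, interval -1.63 to -0.17, limma adjusted p = 0.284), which misses the threshold. Its share of pooled reads was 2.06 times lower in the knockout (exact 95% interval 1.55 to 2.74). That interval covers counting error only, and the wild-type replicates at 0 min differed beyond such error. Voom called *GIGYF2* (limma adjusted p = 0.0169), with 829 transcripts called in all against 20 by limma-trend. None of the other alternative settings called it. The limma adjusted p was 0.383 with quantile normalization and 0.433 with no filter. Over all 20 alternative settings the difference ran from -1.14 to -0.66. The difference was at the 5.57th percentile of all tested transcripts.

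At 30 min the log2 difference of *GIGYF2* between genotypes was -0.33 (interval -1.07 to 0.40). Knockout values were higher at 30 than at 0 min by 0.49 (SE 0.33, limma adjusted p = 0.475), and in wild type the difference was -0.08, which turned to 0.20 with median centring, 0.19 with quantile normalization, 0.16 when wild type 0 min replicate 1 was left out and 0.01 when wild type 30 min replicate 1 was. The difference in recovery between genotypes was 0.57 (SE 0.47, limma adjusted p = 0.615). In the annotation *GIGYF2* overlaps *KCNJ13*, and whether reads were counted by strand is not given in the sources used here.

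**Figure D3:**
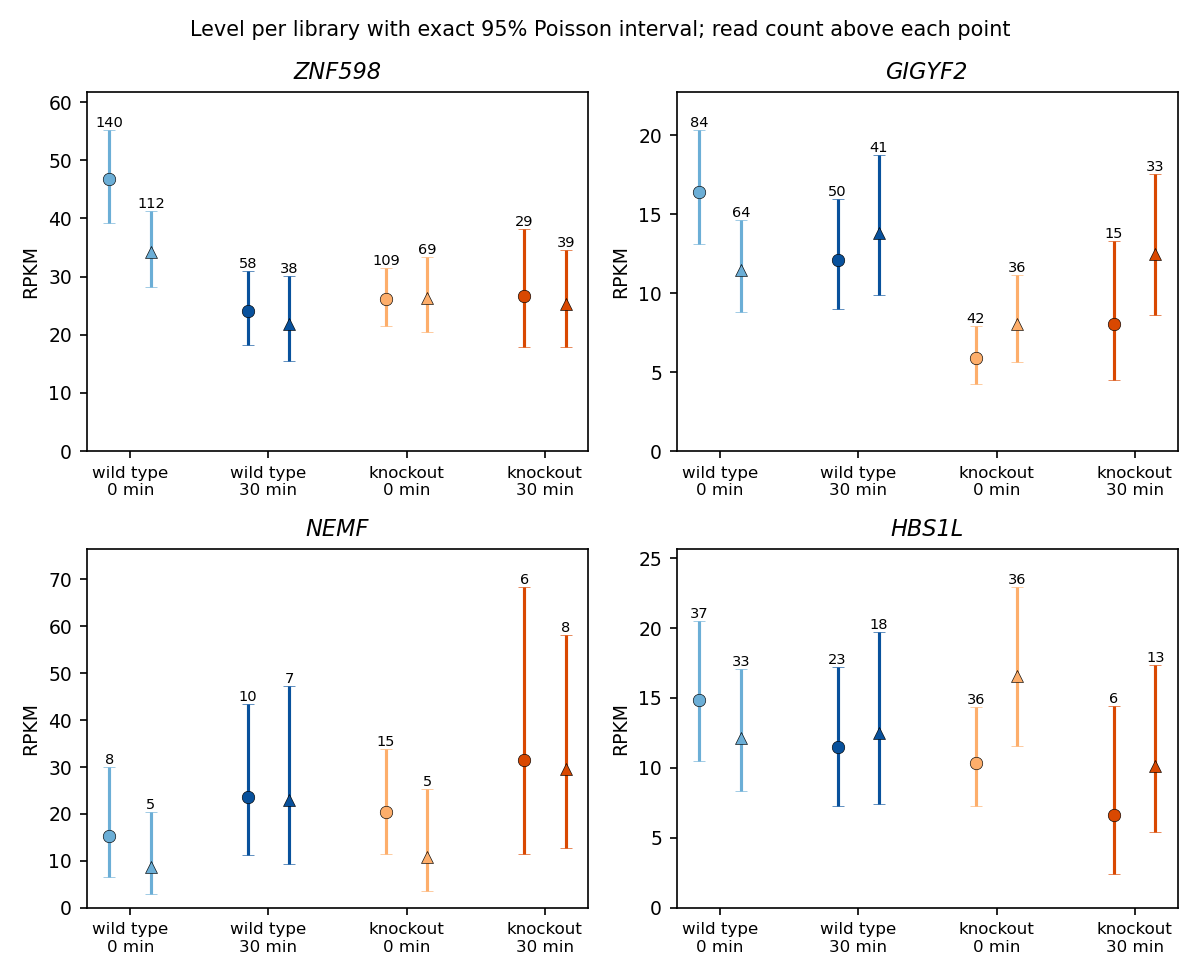
Level in RPKM of *ZNF598*, *GIGYF2*, *NEMF* and *HBS1L* in each library by group (circle replicate 1, triangle replicate 2), with exact 95% Poisson intervals of the read count, which covers counting error only, and the count above each bar. *ZNF598* is highest in both wild-type libraries at 0 min. *GIGYF2* is lowest in the knockout at 0 min, with 8.04 against 8.06 RPKM in the nearest other library. The share of all transcripts with such patterns was not counted. The intervals of *NEMF*, on 5 to 15 reads, overlap between all groups.

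*ASCC3* (ENSG00000112249.14, chr6 from 100508194 to 100881329, transcript of 3433 nt), the helicase that takes collided ribosomes apart, had groups that overlapped in all comparisons but recovery in the knockout. It was at 8.83 and 6.30 RPKM in wild type at 0 min and at 5.68 and 8.46 RPKM at 30 min. The knockout libraries gave 8.44 and 8.60 RPKM at 0 min and 8.09 and 5.71 RPKM at 30 min. Knockout libraries at 30 min lay below those at 0 min, and wild-type libraries of both times overlapped. The log2 difference of knockout recovery was -0.29 (interval -1.05 to 0.48, limma adjusted p = 0.714) on 59 and 18 reads, and that of wild-type recovery -0.09 (interval -0.85 to 0.67). The latter turned to between 0.12 and 0.20 with median centring, with quantile normalization, and without wild type 0 min replicate 1 or 30 min replicate 1.

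Of the factors that open and split ribosomes, *ABCE1* (ENSG00000164163.11, chr4 from 145098311 to 145129524, transcript of 3887 nt) was the best read. It was at 24.3 and 22.0 RPKM in wild type at 0 min and at 21.9 and 28.4 RPKM at 30 min. In the knockout it was at 24.4 and 32.4 RPKM at 0 min and at 25.4 and 20.2 RPKM at 30 min. Knockout libraries at 0 min lay just above wild type, and all other groups overlapped. The log2 difference was 0.27 (interval -0.31 to 0.85) between genotypes at 0 min, 0.11 (interval -0.47 to 0.69) in wild-type recovery and -0.30 (interval -0.88 to 0.28) in knockout recovery. The limma adjusted p of these was 0.678, 0.856 and 0.587. The wild-type value of *ABCE1* turned to -0.18 with TPM scaling and to -0.08 without wild type 30 min replicate 2. *ABCE1* overlaps *ANAPC10* in the annotation.

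*HBS1L* (ENSG00000112339.15, chr6 from 134960378 to 135054822, transcript of 2793 nt) was lowest in the knockout at 30 min. It was at 14.9 and 12.2 RPKM in wild type at 0 min and at 11.5 and 12.5 RPKM at 30 min. Knockout values were 10.4 and 16.6 RPKM at 0 min and 6.63 and 10.1 RPKM at 30 min, the last on 6 and 13 reads. Both knockout libraries at 30 min thus lay below all 6 others, with 10.1 against 10.4 RPKM at the nearest. The share of all transcripts with a group set apart in this way was not counted. The log2 difference of knockout recovery was -0.62 (SE 0.33, interval -1.34 to 0.11, limma adjusted p = 0.352), and that between genotypes at 30 min -0.49 (SE 0.33, interval -1.22 to 0.24, limma adjusted p = 0.607). Both use the same knockout libraries, and neither passed. As a share of reads the gene was 1.37 times lower in the knockout at 30 min, with an exact 95% interval from 0.777 to 2.50 that includes 1.

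*PELO* (ENSG00000152684.11, chr5 from 52787916 to 52804044, transcript of 4371 nt), the partner of HBS1L, had the lowest level in RPKM and 125 reads in all. It was at 4.37 and 3.77 RPKM in wild type at 0 min and at 3.82 and 4.87 RPKM at 30 min. The knockout libraries gave 5.53 and 5.29 RPKM at 0 min and 2.82 and 8.47 RPKM at 30 min. The knockout libraries at 0 min lay above wild type at 0 min, and those at 30 min lay on either side of every other library. The log2 difference between genotypes was 0.34 (interval -0.66 to 1.34) at 0 min and 0.18 (interval -0.82 to 1.17) at 30 min. The second was -0.48 without knockout 30 min replicate 2 and 0.83 without knockout 30 min replicate 1, so its direction rests on 1 library. *PELO* overlaps *ITGA1* in the annotation.

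The ratio of 2 genes in RPKM within a library is not changed by a factor applied to the whole library. The partners were therefore also set against each other. Quantile normalization is not such a factor and can change these ratios. These 4 ratios were chosen after the levels had been seen and are given without a test. *HBS1L* over *PELO* stood at 3.41 and 3.23 for wild type at 0 min, and at 3.0 and 2.56 after 30 min. In the knockout it was 1.88 and 3.13 at 0 min and 2.35 and 1.20 at 30 min. *HBS1L* thus exceeded *PELO* per nt of listed transcript in all 8 libraries, which need not hold per coding base. The knockout values spread more widely than those of wild type.

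*ABCE1* over *PELO* was between 5.56 and 5.83 in the 4 wild-type libraries and between 2.38 and 9.0 in the 4 knockout ones. The extremes were the knockout libraries at 30 min, in which *PELO* had 4 and 17 reads. *EDF1* over *ZNF598* was 3.39 and 3.60 for wild type at 0 min, then 6.24 and 8.43 after 30 min, and lay between 4.02 and 6.4 in the knockout. *GIGYF2* over *ZNF598* gave 0.351 and 0.335 for wild type at 0 min, 0.505 and 0.632 after 30 min, and values between 0.226 and 0.496 in the knockout. For both ratios the wild-type libraries of the 2 times did not overlap, and the knockout libraries of the 2 times did. Both ratios are taken over *ZNF598* and contain its high values of wild type at 0 min. They are thus not independent of each other or of the *ZNF598* levels given above. The share of all gene pairs whose ratio separates in this way was not counted.

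**Figure D4:**
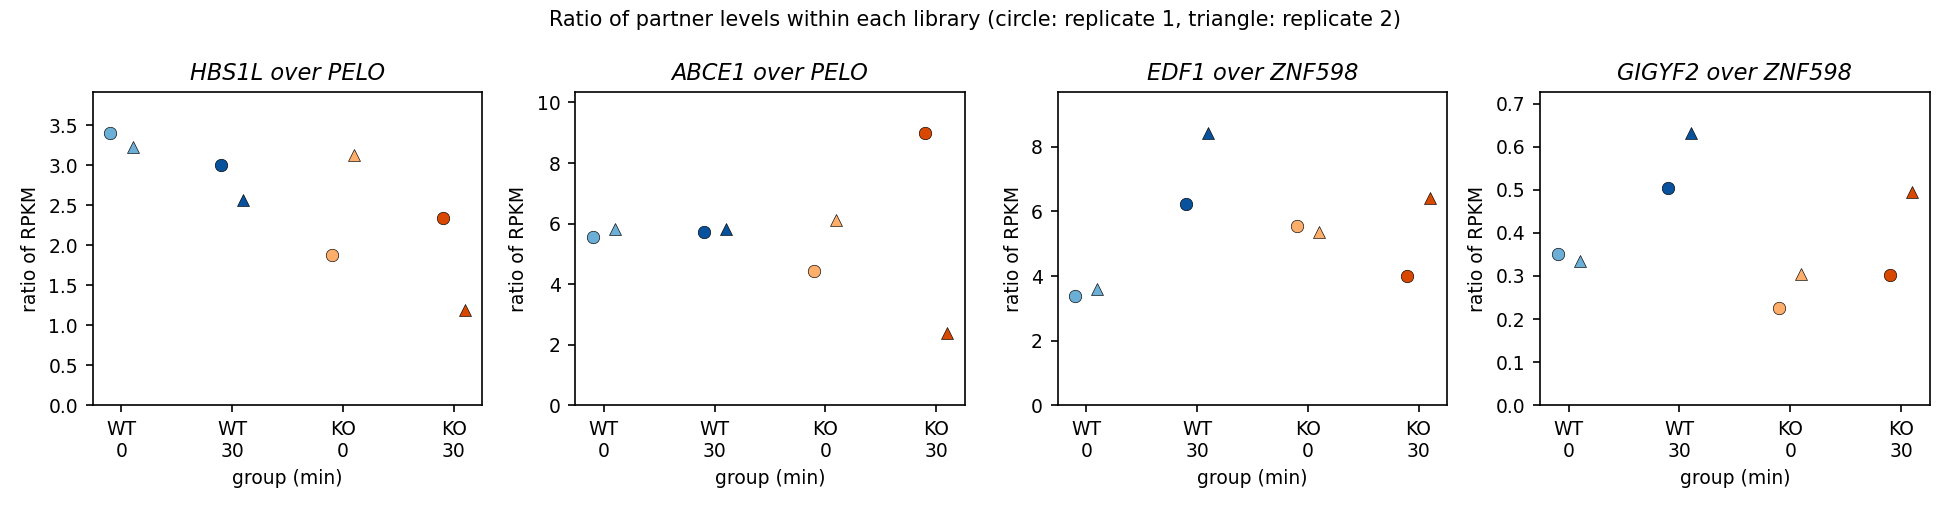
Ratio of RPKM of partner genes within each library, by group (WT wild type, KO RNF14 knockout, with minutes of recovery; circle replicate 1, triangle replicate 2). *ABCE1* over *PELO* lies between 5.56 and 5.83 in wild type and spreads from 2.38 to 9.0 in the knockout, where the extremes are the libraries with 4 and 17 reads of *PELO*.

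Of the factors that clear the stalled peptide, *NEMF* (ENSG00000165525.18, chr14 from 49782083 to 49852788) was the 1 gene that passed a test. It was at 15.2 and 8.72 RPKM in wild type at 0 min and at 23.6 and 23.0 RPKM at 30 min. Knockout values were 20.5 and 10.9 RPKM at 0 min and 31.4 and 29.5 RPKM at 30 min. The 4 libraries at 30 min lay above the 4 at 0 min, as did 3.17% of all transcripts. Wild type averaged 12.0 ± 4.6 RPKM before and 23.3 ± 0.450 RPKM after recovery (SD, n = 2), and the knockout 15.7 ± 6.78 and 30.5 ± 1.32 RPKM.

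Averaged over genotypes *NEMF* rose by 0.96 on the log2 scale (SE 0.24, interval 0.43 to 1.5, limma adjusted p = 0.0383), the 98.2th percentile of all transcripts. In that comparison 2.45% of all transcripts were called higher and 7.79% in either direction. Within wild type the difference was 0.95 (limma adjusted p = 0.153) and within the knockout 0.98 (limma adjusted p = 0.17), and the difference between them was 0.03 (interval -1.05 to 1.10), with a range from -0.40 to 0.45 over the other settings. As a share of reads, both genotypes summed, *NEMF* was 1.81 times higher at 30 min (exact 95% interval 1.07 to 3.05, counting error only). Within each genotype the interval included 1. It ran from 0.903 to 4.42 in wild type (1.97 times higher) and from 0.844 to 3.76 in the knockout (1.81 times higher). The call rests on 33 reads at 0 min and 31 at 30 min, between 5 and 15 in a library. It was kept in 7 of 18 other settings, with voom giving a limma adjusted p of 0.131. Leaving out 1 library ended it in 6 of 8 cases, which were all but wild type 0 min replicate 1 and knockout 0 min replicate 1, and the limma adjusted p ran from 0.0321 to 0.161. Without the shallowest library, knockout 30 min replicate 1, it was 0.0633. Transcripts of up to 600 nt, the class that holds the 590 nt of *NEMF*, were called higher in 45 of 333 cases (13.5%) and lower in 56 (16.8%), with a median log2 difference of -0.18 beside -0.19 over all; the part of length in the *NEMF* result was not tested. In the annotation *NEMF* overlaps *KLHDC2*.

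*LTN1* (ENSG00000198862.14, chr21 from 28928144 to 28992877, transcript of 7756 nt), the ligase that works on NEMF-bound subunits, was called in no comparison. It was at 6.80 and 5.31 RPKM in wild type at 0 min and at 5.75 and 4.74 RPKM at 30 min. The knockout libraries gave 5.09 and 4.47 RPKM at 0 min and 10.3 and 3.93 RPKM at 30 min. These last replicates, on 26 and 14 reads, lay above and below all other libraries and differed by 2.63-fold, beyond counting error. The log2 difference was -0.17 (interval -1.12 to 0.77) in wild-type recovery and 0.37 (interval -0.57 to 1.32) in knockout recovery, with limma adjusted p of 0.856 and 0.696. Without knockout 30 min replicate 1 the knockout value was -0.23, so its direction rests on that library. The wild-type value of *LTN1* turned to 0.11 with median centring and 0.10 with quantile normalization.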

How the data were processed

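Per the submitters' processing notes, adapters were handled with cutadapt and reads aligned with STAR 2.7.10a to hg38. The authors deposited 1 table of RPKM values, per the file headers, with the length of each listed transcript; how transcripts were chosen and which region was counted is not given in the sources used here. RPKM times length gave whole reads for 100% of values above 0 (tolerance 0.05), which gave the reads and depths printed. Intervals on reads cover counting error only, and PCR copies were not marked.

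Differences were tested by limma-trend (version 3.58.1 in R 4.3.3) on log2(RPKM + 1) for 11920 transcripts with a mean RPKM of at least 1, with all 8 libraries in 1 fit of 4 group means (4 residual degrees of freedom), two-sided, with p-values adjusted by Benjamini-Hochberg and called at 0.05; fold changes on this scale understate those of low genes. limma voom on recovered reads was an alternative. The fit was also run on simulated data in which only better-read transcripts were changed. *NEMF*, *PELO* and *ASCC3* had fewer reads than those, so the run does not bear on them. Alternatives were other pseudocounts, filters, scalings, a replicate block, no trend, fits to the compared groups alone and fits lacking each library in turn; a minimum mean of 10 reads and the ratios of read shares were added after seeing the data. Reads per codon were not computed, as no protein table was used here. The rule for named genes took all 10 genes. The members and lists were chosen with earlier results of these data known. A suffix on the column name of knockout 30 min replicate 1 has no counterpart in the labels; the column was matched by genotype, time and replicate. Other steps ran in Python 3.11.15 with scipy 1.17.1, pandas 2.3.3, numpy 2.4.6 and matplotlib 3.10.9.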

Additional observations from a re-analysis of the deposited data

How the results depend on the processing

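Of 1356 refitted differences of the 10 genes, 536 were identical by construction (a filter, a block, the prior or a library outside the comparison does not enter them), 2 of which lost the call through their p. Of the 820 others, 769 moved by less than 1 SE on the same side of the threshold, but 69 of the 70 tests were uncalled to begin with; 38 moved further, 13 crossed the threshold, and 90 turned sign, none of them called in either setting. *PELO* was not tested with a mean RPKM of at least 5, and *NEMF* was not tested with a mean of 10 or more reads. In wild-type recovery, 1 gene, *ZNF598*, was called with TPM scaling (11.6% of all transcripts called) and 1, again *ZNF598*, with voom (9.87%), against 0 in the main analysis (3.23%). Between genotypes at 0 min voom called 1, *GIGYF2*, against 0, and 6.95% of all transcripts against 0.168%. In recovery averaged over genotypes the count was 1 in the main analysis and 0 with a pseudocount of 0.1, no filter, no trend, voom or a mean of 10 or more reads, and between 0 and 1 over the libraries left out; with TPM scaling it was 1 but the gene was *ZNF598* (limma adjusted p = 0.0427), not *NEMF* (limma adjusted p = 0.0597). The order of levels kept at least 7 of 10 places with any library left out, the fewest without knockout 30 min replicate 1.

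With the replicate block *NEMF* stayed called (limma adjusted p = 0.0298) and the number of called genes was 1 in recovery averaged over genotypes and 0 in the other comparisons, as in the main analysis. The labels do not say that a replicate number marks a shared batch, so equal numbers were not treated as pairs. Correlations of deviations between groups lay between -0.0794 and 0.0669 over all tested transcripts. Counting error pulls such values towards 0, so they cannot show that no pairing exists. Over all transcripts, calls ran from 2 to 1385 in wild-type recovery (385 in the main analysis), 0 to 571 in knockout recovery (235), 3 to 829 (20) and 1 to 126 (15) between genotypes at 0 and 30 min, 0 to 125 (1) for their difference, and 99 to 2165 (929) and 20 to 176 (45) for the averages of recovery and genotype. Depth limits the set most at 30 min in the knockout, where *PELO*, *HBS1L* and *NEMF* had between 4 and 17 reads per library.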
